A study of Mus musculus with 12 samples.

Results

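MHC class I antigen presentation was followed here through 9 genes of the mouse, listed by their role in the pathway. They are the heavy chain genes H2-K1, H2-D1 and H2-T23, the light chain gene B2m, the peptide loading genes Tap1, Tap2, Tapbp and Erap1, and the transcriptional activator Nlrc5. All 9 are among the 41255 genes of the mRNA table and the 10080 genes of the table of ribosome-protected fragments (RPF). The cells were Ba/F3, an established mouse lymphoid line, in 6 monoclonal cultures: 3 RPL10 R98S clones (11, 13 and 35) and 3 RPL10 WT clones (28, 29 and 36). In all 6, human RPL10 was expressed from a retroviral vector while an shRNA knocked down the endogenous gene, so WT clones are not unmodified cells, and each culture descends from a single cell. Every clone gave an mRNA library and a footprinting library after 100 μg/ml cycloheximide for 5 min, which makes 12 libraries. The clones were the replicates, and p-values measure the spread between clones.

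A class I molecule consists of a polymorphic heavy chain, beta-2 microglobulin and a short peptide, and it shows fragments of the cell's own proteins to cytotoxic T cells and NK cells. The proteasome cuts proteins into peptides, the TAP transporter moves these into the endoplasmic reticulum, the aminopeptidase ERAP1 trims them there, and tapasin holds the empty heavy chain at TAP until a peptide has bound. The genes share regulation: NLRC5 is a transactivator that acts on the SXY module of class I promoters, and interferons and NF-kB raise many of them. In lymphoid cells the classical class I molecules are normally made in large amounts.

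The heavy chain genes resemble each other so closely that a short read often cannot be given to a single gene, and sequences are shown here because this bears on every heavy chain value below. In the coding sequences of the GENCODE annotation of GRCm38, H2-K1 (chromosome 17, 33996017 to 34000347, minus strand) and H2-D1 (chromosome 17, 35262730 to 35267499, plus strand) had 91.9% identical bases over 1076 aligned bases. H2-T23 (chromosome 17, 36029773 to 36032855, minus strand) was 84.7% identical to H2-K1 and 83.0% to H2-D1. The longest run common to H2-K1 and H2-D1 was 91 bases, far longer than a footprint, at bases 738 to 828 of the H2-K1 coding sequence and 747 to 837 of that of H2-D1:
H2-K1 and H2-D1: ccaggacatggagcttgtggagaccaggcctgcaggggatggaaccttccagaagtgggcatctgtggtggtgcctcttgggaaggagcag
In contrast, the 60 ungapped bases that differed most held 13 differences, marked in capitals, and reads from there can be told apart. They start at base 328 of the H2-K1 and at base 337 of the H2-D1 coding sequence:
H2-K1: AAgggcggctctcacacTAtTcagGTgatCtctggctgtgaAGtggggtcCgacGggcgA
H2-D1: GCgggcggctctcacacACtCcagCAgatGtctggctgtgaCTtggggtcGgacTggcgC

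Of all windows of 30 bases, about a footprint's length, in the counted part of the coding sequence, 34.2% in H2-K1, 45.0% in H2-D1 and 54.1% in H2-T23 also occurred in a transcript of another gene. H2-D1 was the closest partner of H2-K1 (23.8% of its windows), and a pseudogene, H2-T-ps, that of H2-T23 (36.3%). With windows of 50 bases the shares were 13.6%, 25.7% and 30.4%. B2m, Erap1 and Nlrc5 shared no window of either length, whereas Tap1 shared 2.16%, Tap2 24.6% and Tapbp 17.3% of the shorter windows. The partners of Tap2 were mainly the predicted genes Gm15821 and Gm20496, which overlap it, and that of Tapbp was Gm19412, which overlaps it too. Reads that map equally well to several places have a low mapping quality and were dropped by the authors' filter, so heavy chain values rest mainly on the parts in which the genes differ. The reference genome is that of C57BL/6J, class I genes are highly polymorphic between mouse strains, and the part of such differences in the counts was not tested.

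Some of the promoters carry letters through which class I genes are known to be regulated. RefSeq promoter windows of GRCm38.p6 were at hand for 7 of the 9 members (not for Tap2 and Nlrc5), and 4 motifs were searched on both strands of the 250 bases before the start: GGGATTCC (a NF-kB form), GAANNGAAA (part of an interferon response element), TGACG (the core of the X2 box or CRE) and CCAAT (the Y box). No match printed here overlaps another. H2-K1 and H2-D1 held all 4, in the same order, and the stretch that holds them is printed with 10 flanking bases on each side and the motifs in capitals. For H2-K1, in the first of its 2 windows, it lies at chr17:34000349-34000467 on the minus strand, for H2-D1 at chr17:35262914-35263055 on the plus strand, and for B2m, which held the last 2 motifs, at chr2:122147599-122147648 on the plus strand. The stretch around the only match in H2-T23, a Y box, is chr17:36032739-36032763 on the minus strand:
H2-K1: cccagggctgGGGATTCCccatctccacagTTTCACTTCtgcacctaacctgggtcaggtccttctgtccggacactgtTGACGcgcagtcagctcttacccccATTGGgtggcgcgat
H2-D1: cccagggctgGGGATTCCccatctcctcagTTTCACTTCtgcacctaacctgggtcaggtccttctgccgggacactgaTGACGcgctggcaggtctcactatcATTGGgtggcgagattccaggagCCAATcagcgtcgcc
B2m: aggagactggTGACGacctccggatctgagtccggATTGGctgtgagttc
H2-T23: tttctaaaagCCAATcagcgacgca
The NF-kB form was found in 0.889% of all 32851 promoter windows of this length and in 2 of the 7 members, and the interferon part in 6.31% and again 2 of 7. TGACG within 30 bases of a Y box, the arrangement of the SXY module, was in 2.51% of windows and in 3 of the 7 members (H2-K1, H2-D1 and B2m). Alone, TGACG occurred in 17.8% and CCAAT in 33.8% of windows. Tap1 held TGACG and a distant Y box, Tapbp 2 Y boxes, and Erap1 none of these letters. These are matches of letters in a window and say nothing on binding.

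Depth was from 6617457 to 23136595 counted reads in mRNA libraries and from 3477723 to 10883086 in footprinting libraries, the lowest being WT clone 28 for mRNA and R98S clone 35 for RPF. Values are normalized counts, which are gene counts divided by a size factor per library, and counting error grows as reads become few: each of the 8 members other than Nlrc5 had at least 204 reads in every library, but Nlrc5 had only 3 RPF reads in R98S clone 35. Pearson's r between clones of a genotype, across tested genes on the log2 scale, was between 0.947 and 0.978 for mRNA and between 0.952 and 0.976 for RPF; genes are not independent replicates.

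Per kb of transcript, the members covered a wide range in these cells. B2m stood at 8636 ± 594 mRNA counts per kb (SD, n = 6 clones), above 98.9% of tested genes. H2-K1 (1511 ± 257) and H2-D1 (1474 ± 505.5) followed, and their ranges overlapped. Tap2 (799.5 ± 105), H2-T23 (648 ± 226), Tap1 (487.5 ± 102) and Tapbp (393 ± 104) came next, each overlapping its neighbour in this order. Erap1 (147 ± 32.4) lay below all of these, and Nlrc5 (29.7 ± 18.1), above only 13.0% of tested genes, lay lowest, without overlap. With the union of annotated exons as the length, a choice made after seeing the data, H2-K1 and H2-D1 exchanged places, as did Tap1 and Tapbp.

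Per kb of counted coding sequence, B2m again led at 7861 ± 1098 RPF counts, and Nlrc5 was again lowest at 8.13 ± 5.07. Tap2 (1861 ± 171) had about as many footprints per kb as H2-K1 (1999 ± 248), and the order of the pair differed between clones. Tapbp (1148 ± 206.5) had more than Tap1 (562 ± 41.2) in every clone, although Tap1 had more mRNA per kb than Tapbp in 5 of 6. The tables were normalized separately, so the ratio of RPF to mRNA has no absolute scale; relative to the median gene of each clone, Tapbp had a log2 ratio of 2.14 ± 0.20 (SD, n = 6), above 97.6% of genes, and H2-T23 one of 0.06 ± 0.24. This ratio also moves with the transcript length used, and with the exon union it was 1.84 for Tapbp and 0.40 for H2-T23. In both assays the lengths were not reduced for stretches shared with other genes. Of 30-base coding windows, 34.2% in H2-K1, 45.0% in H2-D1 and 54.1% in H2-T23 were shared, but none in B2m. How far dropped reads lower the heavy chain values per kb was not tested.

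**Figure D1:**
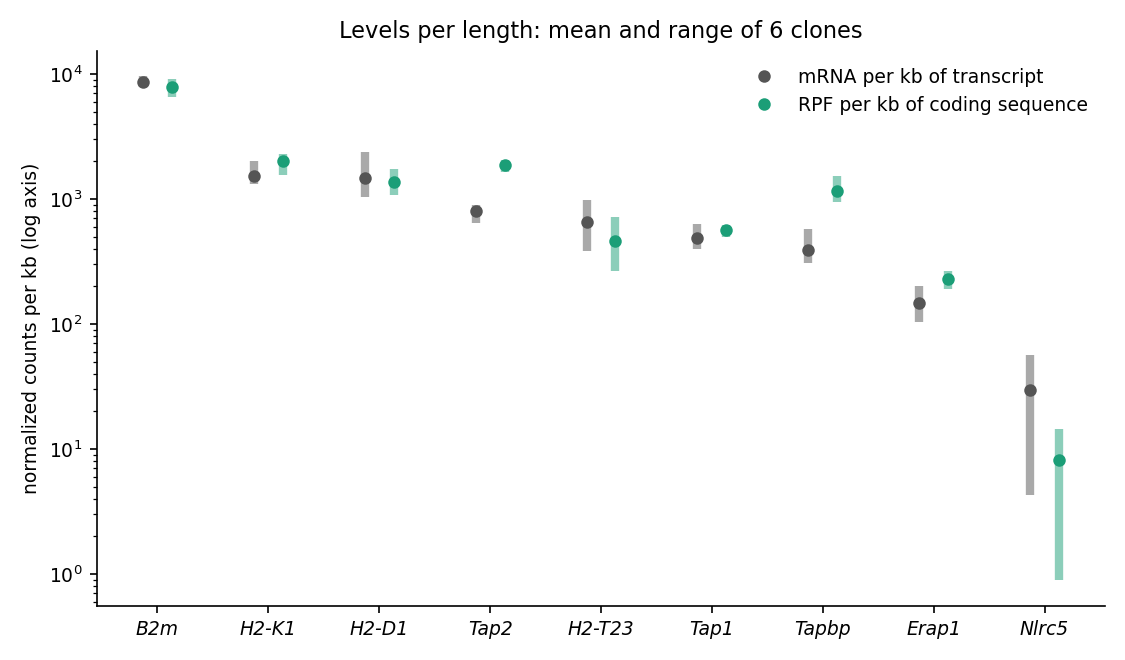
Normalized counts per kb on a log axis for the 9 members, ordered by mRNA; grey is mRNA per kb of transcript and green RPF per kb of coding sequence, points are means and bars the range of the 6 clones. B2m leads in both at 8636 and 7861, and Nlrc5 is lowest in both at 29.7 and 8.13.

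The comparison of genotypes asks whether the R98S mutation goes with another level of these mRNAs, of their footprints, or of their footprints per mRNA (translation efficiency, TE). For RPF, H2-T23 rose and Nlrc5 fell in R98S clones at an adjusted p under 0.1, the study's threshold, and the other 7 members did not pass (limma on log2(value + 1), Benjamini-Hochberg over all tested genes). That is 1 of 9 higher, where 3.13% of all 9580 tested genes were higher, and 1 of 9 lower, where 4.62% were lower. For mRNA none of the 9 passed with limma, where 3.03% of 11344 genes were higher and 3.91% lower, although 3 members had an unadjusted p under 0.05 (H2-T23, Tapbp and Nlrc5), as had 17.9% of all tested mRNAs. DESeq2 on the recovered reads called 2 of the 9 for mRNA (11.3% of all genes with that tool) and 2 of 9 for RPF (11.4%), and edgeR called 1 for mRNA (7.02% of all genes) and 2 for RPF (8.42%). The median log2 change of the members was 0.04 for mRNA and 0.08 for RPF, against 0.01 over all tested genes in both assays. With 3 clones against 3, an exact two-sided permutation test cannot go below p = 0.1, and members whose genotypes did not overlap reached that value. Since these are bulk cultures, fewer cells that express a gene and less RNA per cell cannot be told apart.

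H2-T23 encodes Qa-1, a nonclassical heavy chain that presents leader peptides of other class I molecules to NKG2A receptors. In R98S clones 11, 13 and 35 it had 1431, 939 and 1239 normalized mRNA counts, whereas WT clones 28, 29 and 36 had 897, 657 and 562. All R98S clones were above all WT clones, as in 23.5% of tested mRNAs, but the lowest R98S value was close to the highest WT value, that of the shallow library of clone 28. The log2 change was 0.78 (SE 0.23, 95% interval 0.25 to 1.30, adjusted p = 0.11), which did not pass. It passed in 5 of 15 alternative fits: with array quality weights (1.08, adjusted p = 0.00404), with DESeq2 (0.78, adjusted p = 0.0326), with edgeR (0.79, adjusted p = 0.0954), with chromosome medians removed (0.81, adjusted p = 0.0589) and without WT clone 28 (0.96, adjusted p = 0.0395). RPF of H2-T23 stood at 727, 566 and 579 in the R98S clones and at 340.1, 312 and 269 in the WT clones. Here the genotypes were well apart, and genotypes did not overlap for 25.3% of tested RPF genes. The log2 change was 1.02 (SE 0.19, 95% interval 0.60 to 1.43, adjusted p = 0.0162, limma), which is 2.02-fold, and it passed in all 15 alternative fits run, with adjusted p from 0.000256 to 0.0838. The gene overlaps an antisense transcript, A930015D03Rik. Per the paper's methods the mRNA libraries were made with a stranded kit, but the counting is not stated to use strand. The part of antisense reads in the mRNA values was not tested.

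H2-K1 and H2-D1, the classical heavy chains, did not share this difference. For H2-K1, mRNA was 3233, 2139 and 2526 in the R98S clones and 2132, 2231 and 2417 in the WT clones. Only R98S clone 11 stood out, and the genotypes overlapped. The log2 change was 0.20 (SE 0.19, 95% interval -0.22 to 0.62, adjusted p = 0.629). H2-K1 RPF was 2222, 2054 and 2136 in the R98S clones, all inside the range of the WT clones, which were at 2385, 1616 and 2145. Its log2 RPF change was 0.08 (SE 0.19, 95% interval -0.33 to 0.49, adjusted p = 0.849), so a rise as large as that of H2-T23 lies outside the interval.

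H2-D1 mRNA was 3642, 2185 and 2893 in the R98S clones and 4989, 2325 and 2551 in the WT clones. The highest value belonged to WT clone 28, whose library was the shallowest, and the log2 change of -0.12 (SE 0.30, 95% interval -0.79 to 0.55, adjusted p = 0.881) turned to 0.22 without that clone. H2-D1 RPF showed no such outlying value in clone 28, with 1779, 1379 and 1275 in the R98S clones against 1444, 1099 and 1372 in the WT clones. The log2 RPF change was 0.17 (SE 0.19, 95% interval -0.25 to 0.60, adjusted p = 0.658). Adding H2-K1 and H2-D1 cancels reads given to the wrong gene of the pair. It does not restore dropped reads or remove reads of other heavy chain genes. The mRNA sum of the pair was 5539 ± 1279.6 for R98S and 5548 ± 1378 for WT (SD, n = 3 clones each, exact permutation p = 1). The RPF sum of the pair was 3615 ± 335 for R98S and 3354 ± 575 for WT (exact permutation p = 0.6).

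B2m, the light chain of every class I molecule, lies on chromosome 2 (122147686 to 122153083, plus strand). Its mRNA was 8274, 7149 and 7185 in the R98S clones and 6797, 7652 and 7506 in the WT clones. The 6 values lay close together, and the log2 change was 0.04 (SE 0.16, 95% interval -0.31 to 0.39, adjusted p = 0.927), the narrowest mRNA interval among the members. B2m RPF was 2722, 1979 and 1931 in the R98S clones and 2394, 2351 and 2632 in the WT clones. R98S clone 11 was the highest and the other R98S clones were the lowest, with a log2 change of -0.17 (SE 0.19, 95% interval -0.58 to 0.24, adjusted p = 0.652).

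**Figure D2:**
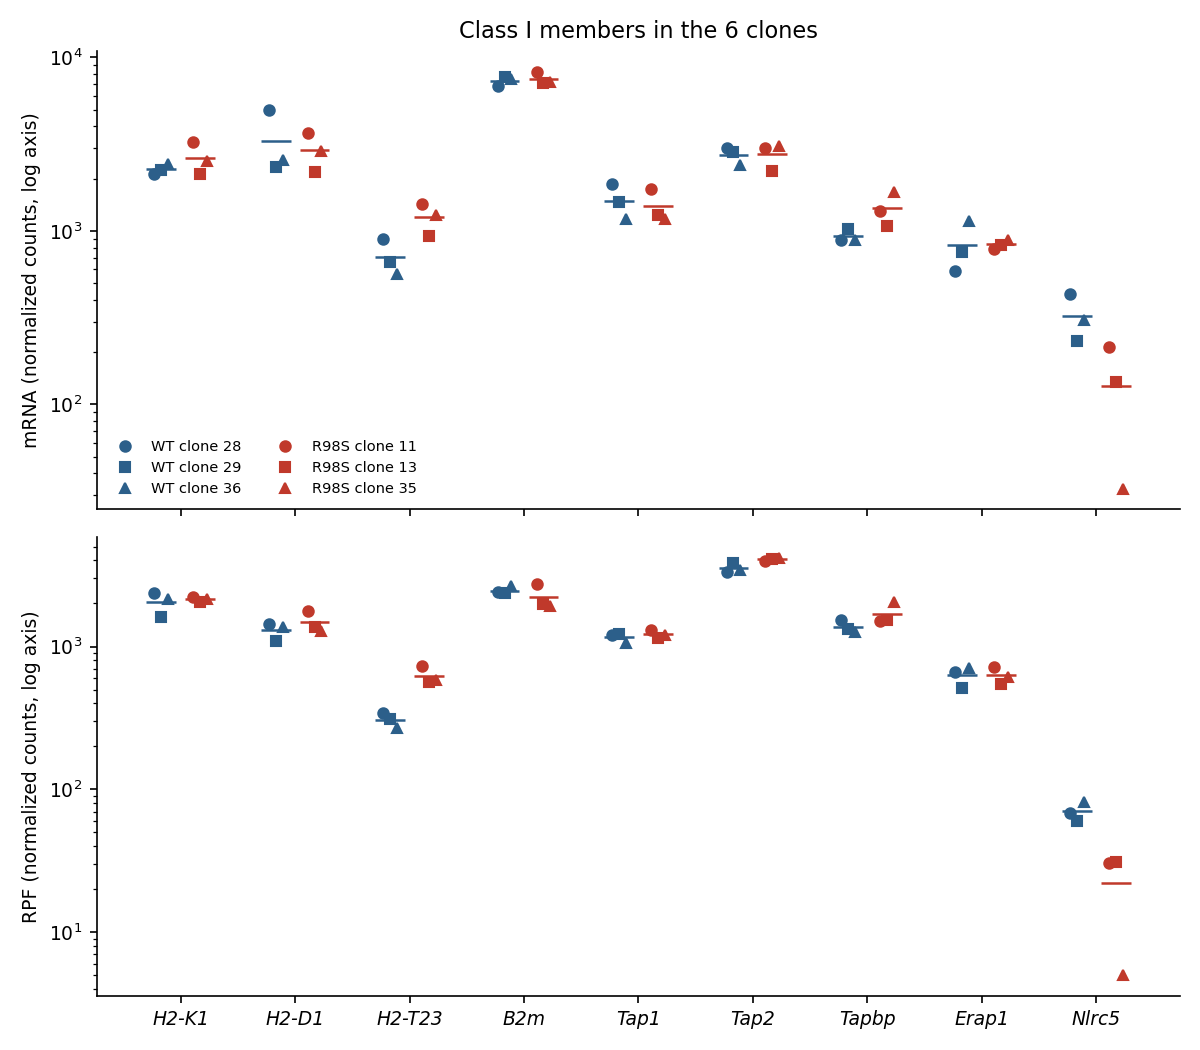
Normalized counts of each member in each clone, mRNA above and RPF below, on log axes; blue marks are WT clones, red marks R98S clones and lines the means of 3 clones. R98S points lie above WT points for H2-T23 and below them for Nlrc5 in both panels, with R98S clone 35 lowest for Nlrc5 at 32.7 and 5.04.

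Tap1 and Tap2 encode the subunits of the peptide transporter and lie close together on chromosome 17 (Tap1 at 34187553 to 34197225 and Tap2 at 34203527 to 34216321, both on the plus strand). Tap1 mRNA was 1750.4, 1232 and 1174 in the R98S clones and 1850.2, 1462 and 1169 in the WT clones. Both genotypes covered nearly the same range, and the log2 change was -0.11 (SE 0.23, adjusted p = 0.857). Tap1 RPF was 1309, 1138 and 1199 in the R98S clones and 1198, 1227 and 1050.2 in the WT clones, with a log2 change of 0.07 (SE 0.16, 95% interval -0.29 to 0.43, adjusted p = 0.849). Tap2 mRNA was 3010.3, 2204 and 3079 against 2986, 2829.8 and 2402, a log2 change of 0.00 (SE 0.19, 95% interval -0.42 to 0.42, adjusted p = 0.996). Footprints of Tap2 were slightly more in each R98S clone (3963, 4086 and 4175) than in any WT clone (3336, 3860.5 and 3422). The genotypes did not overlap, but the log2 RPF change of 0.21 (SE 0.17, 95% interval -0.16 to 0.57, adjusted p = 0.52) did not pass. Tap1 and Psmb9 overlap on opposite strands.

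Tapbp encodes tapasin, the chaperone that links the heavy chain to TAP (chromosome 17, 33915899 to 33929292, plus strand). Its mRNA was 1307, 1063 and 1666 in the R98S clones and 883, 1029 and 888 in the WT clones, without overlap, though R98S clone 13 and WT clone 29 were almost equal. The log2 change was 0.51 (SE 0.20, 95% interval 0.05 to 0.96, adjusted p = 0.221) and did not pass, except with array quality weights (adjusted p = 0.0504). Tapbp RPF overlapped between genotypes, at 1499.7, 1545 and 2044 in the R98S clones and 1543, 1326 and 1256 in the WT clones (log2 change 0.29, SE 0.19, adjusted p = 0.408). Clone 35 was the highest R98S clone in both assays. Tapbp overlaps Zbtb22, a protein-coding gene on the same strand, with a log2 mRNA change of -0.59 (adjusted p = 0.167, limma). The part of reads shared by the pair in Tapbp values was not tested.

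Erap1, the aminopeptidase that trims peptides to fit the groove, lies on chromosome 13 (74639568 to 74693201, plus strand). Its mRNA was 791, 828 and 888 in the R98S clones, all inside the WT range of 585, 754 and 1141. The lowest and the highest value were thus both from WT clones, and the log2 change was 0.07 (SE 0.24, 95% interval -0.48 to 0.62, adjusted p = 0.921). Erap1 RPF was 720.1, 549 and 613 in the R98S clones and 664, 515 and 712 in the WT clones, and its log2 change of -0.00 (SE 0.19, 95% interval -0.43 to 0.42, adjusted p = 0.995) was the closest to 0 of all RPF changes of the members.

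Nlrc5 lies on chromosome 8 (94434356 to 94527272, plus strand) and encodes the class I transactivator. Its mRNA was 213, 135 and 32.7 in the R98S clones and 429.7, 233 and 306 in the WT clones. All R98S clones lay below all WT clones, and clone 35 lay far below the other R98S clones, which made the spread large. The log2 mRNA change was -1.66 (SE 0.59, 95% interval -2.97 to -0.35, adjusted p = 0.164) and did not pass. Without R98S clone 11 it was -2.21 and passed (adjusted p = 0.0951), with DESeq2 it was -1.34 and passed (adjusted p = 0.071), and without R98S clone 35 it was -0.88 and did not. Nlrc5 RPF was 30.3, 31.0 and 5.04 in the R98S clones and 68.8, 60.4 and 81.7 in the WT clones. Again no R98S clone reached a WT clone. The log2 RPF change was -1.96 (SE 0.57, 95% interval -3.21 to -0.71, adjusted p = 0.0845, limma) and passed narrowly. It did not pass without R98S clone 11, R98S clone 13, WT clone 28, WT clone 29 or WT clone 36, with adjusted p from 0.102 to 0.207, but it passed without R98S clone 35, whose 3 reads gave the lowest value (log2 change -1.16, adjusted p = 0.0501). The median over tested genes of chromosome 8 was itself lower in R98S clones, with a log2 difference of -0.21 for mRNA and of -0.20 for RPF. With each chromosome's median removed, the RPF change was -1.76 and did not pass (adjusted p = 0.118). H2-K1, H2-D1 and B2m, whose promoters hold the paired TGACG and Y box letters printed above, did not pass in either assay. Whether the Nlrc5 values bear on these genes was not tested.

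TE was tested where each of the 12 libraries had a value of 10 or more, which kept 8 members and left out Nlrc5. None passed with limma, edgeR or DESeq2, and none had an unadjusted p under 0.05, as 7.85% of genes had. Over all 9043 genes, 0.0221% passed with limma, 0.0332% with edgeR and 0.597% with DESeq2. Log2 TE changes of the 8 members ran from -0.21 (Tapbp) to 0.29 (H2-D1), and the lowest adjusted p was 0.722, that of H2-T23. The RPF/mRNA ratio of H2-T23 was 0.508, 0.602 and 0.468 in the R98S clones and 0.379, 0.475 and 0.478 in the WT clones. The genotypes overlapped, and the log2 TE change was 0.24 (SE 0.19, 95% interval -0.19 to 0.68). None of the 8 members had TE values without overlap between genotypes, against 14.8% of tested genes. For Nlrc5 the ratio was 0.142, 0.229 and 0.154 in the R98S clones and 0.160, 0.260 and 0.267 in the WT clones, which overlapped as well.

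**Figure D3:**
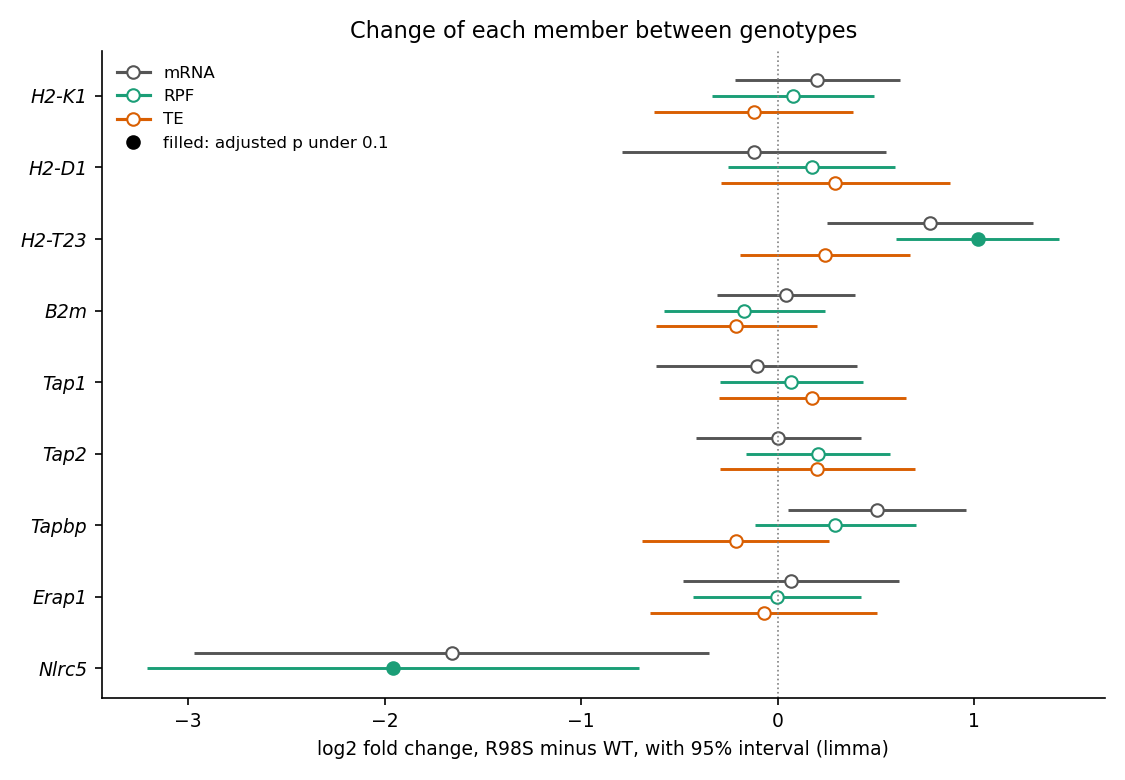
Log2 fold change of each member, R98S minus WT, with its 95% interval from limma, for mRNA (grey), RPF (green) and TE (orange); filled points have an adjusted p under 0.1. Only the RPF points of H2-T23 at 1.02 and of Nlrc5 at -1.96 are filled, and Nlrc5 has no TE value.

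The other steps of the pathway were described with lists of genes. Of 5 genes of the immunoproteasome and its activator, 1 rose in mRNA (3.03% of all tested genes did) and 2 in RPF (3.13%), with a median log2 RPF change of 0.48. Both are subunits of PA28, the interferon-inducible cap that opens the proteasome. Psme1 mRNA was 3419, 3406 and 3171 in the R98S clones and 2479, 1961 and 2035 in the WT clones (log2 change 0.63, SE 0.16, adjusted p = 0.0677, limma; 1.55-fold). Its RPF was 2838, 2934 and 2287 against 1638, 1709.5 and 1747 (log2 change 0.65, SE 0.17, adjusted p = 0.0605). The genotypes were apart in both assays, yet the calls were narrow: that for mRNA held only without WT clone 28 when 1 clone was left out (adjusted p from 0.0275 to 0.254), and that for RPF only without R98S clone 35 or WT clone 29 (0.0441 to 0.245). With chromosome medians removed neither passed (adjusted p = 0.174 for mRNA and 0.111 for RPF).

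Psme2 RPF was 1058, 959.6 and 687 in the R98S clones and 375, 475 and 543 in the WT clones. Its log2 RPF change was 0.95 (SE 0.22, adjusted p = 0.0392), and it was lost without R98S clone 11, R98S clone 13 or WT clone 28 (adjusted p up to 0.169). Psme2 mRNA did not overlap between genotypes either but did not pass (log2 change 0.53, SE 0.20, adjusted p = 0.204), except with array quality weights (adjusted p = 0.012) and without WT clone 28 (adjusted p = 0.0493). Psme2 shares 77.1% of its 30-base windows with a copy, Psme2b, so its counts are uncertain; Psme1 shares 32.2% with other transcripts. The catalytic subunits Psmb8, Psmb9 and Psmb10 did not pass in either assay, nor did any of their 3 constitutive counterparts, of which Psmb6 had the highest mRNA level (log2 change 0.35, adjusted p = 0.297).

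None of the 9 folding and loading helpers, 9 cytosolic or endosomal peptidases, 13 regulators of class I promoters and 6 tested class II genes passed in either assay with limma. Together with the 3 constitutive subunits these are 40 tested genes, of which 2 had an unadjusted p under 0.05 for mRNA (17.9% of all tested genes had) and 6 for RPF (20.3%); DESeq2 called 1 in each assay, and edgeR none for mRNA and 1 for RPF. The most abundant helper mRNA was that of calreticulin (Calr), with a log2 change of -0.06 (adjusted p = 0.945) for mRNA and of -0.65 (adjusted p = 0.221) for RPF. Among peptidases it was nardilysin (Nrd1, -0.00 for mRNA, adjusted p = 0.995), and among regulators the NF-kB subunit gene Nfkb1 (0.19, adjusted p = 0.764). Class II alpha and beta chains were essentially absent. H2-Aa and H2-Eb1 were listed at 0 in all mRNA libraries, and H2-Ab1 at 0.860 in R98S clone 35 and 0 elsewhere. Their activator Ciita, a relative of Nlrc5, was at no more than 7.42. H2-Oa, which encodes a chain of the class II accessory protein H2-O, led that list in mRNA (log2 change 0.65, adjusted p = 0.137).

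Interferon-stimulated genes showed no common direction in mRNA or RPF. Of 13 tested for mRNA 1 fell, where 3.91% of all tested genes did. Of 10 tested for RPF 2 fell, where 4.62% of all did, and the medians were 0.04 and -0.01. Stat2, a part of the interferon-induced ISGF3 factor, had RPF of 128, 136 and 156 in the R98S clones and 368, 293 and 248 in the WT clones (log2 change -1.09, SE 0.21, adjusted p = 0.021, limma), while its mRNA change of -0.41 did not pass (adjusted p = 0.291). Usp18, an inhibitor of interferon receptor signalling, was low: 7.14, 10.6 and 8.60 mRNA counts in the R98S clones against 32.2, 22.3 and 39.2 in the WT clones (log2 change -1.70, SE 0.45, adjusted p = 0.075). Its RPF log2 change was -2.28 (SE 0.65, adjusted p = 0.0796) and did not pass without R98S clone 11, R98S clone 13 or WT clone 28 (adjusted p up to 0.256). In 2 of these R98S libraries it rested on 2 or 3 reads. The Usp18 mRNA call was lost without R98S clone 11, R98S clone 13, R98S clone 35 or WT clone 36 (adjusted p up to 0.249), and with no filter on low values (0.141). The most abundant gene of this list, Bst2, had a log2 mRNA change of -0.13 (adjusted p = 0.852). For TE, none of 9 tested genes of the list passed, and their median log2 change was -0.39. Among these 9, 3 had an unadjusted p under 0.05 with limma (7.85% of all genes had). Genotypes did not overlap in TE for 3 of the 9, against 14.8% of tested genes.

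Of 14 further class I heavy chain genes tested for mRNA, only H2-Q4, a nonclassical gene of the Qa-2 region, passed. It rose, where 3.03% of all tested genes did. None of 9 tested for RPF passed with limma, DESeq2 or edgeR, and 2 had an unadjusted p under 0.05 (20.3% of all tested genes had). H2-Q4 mRNA was 97.6, 91.7 and 83.4 in the R98S clones and 8.06, 7.42 and 5.49 in the WT clones (log2 change 3.54, SE 0.37, adjusted p = 0.000967). WT clones 28, 29 and 36 had only 3, 9 and 7 reads of it. The genotypes were far apart, and the call held with each clone left out. Footprints of H2-Q4 did not follow in proportion, with 69.1, 68.7 and 97.4 in the R98S clones and 51.6, 40.6 and 44.8 in the WT clones (log2 change 0.75, SE 0.27, adjusted p = 0.147, and 0.0897 with array quality weights). The ratio of RPF to mRNA normalized counts of H2-Q4 was 5.47 to 8.17 in WT clones and 0.708 to 1.17 in R98S clones. H2-Q4 shares 61.9% of its 30-base windows with other transcripts, among them those of Gm11131 (26.5%), H2-D1 (20.8%) and H2-K1 (17.3%), and the part of shared reads in its RPF was not tested. H2-Q1, named after its values were seen, had a like pattern in all clones, with 1.72 to 8.06 mRNA counts but 43.0 to 77.7 RPF counts. H2-T22 had the highest mRNA level of this list (log2 change 0.46, adjusted p = 0.357). Summed over all listed H2 heavy chain genes, mRNA was 8483 ± 1750.4 for R98S and 7672 ± 1622 for WT (SD, n = 3 clones each, exact permutation p = 0.6), and H2-K1 and H2-D1 made up 68.6% of that sum. The RPF sum, over 13 of these genes, was 4956 ± 438 for R98S and 4220 ± 629 for WT (exact permutation p = 0.3). For the list without the members, summed RPF was 771 to 810 in R98S and 575 to 703 in WT clones, which was not tested. Its summed mRNA overlapped, at 1840 to 2302 and 1639 to 1967.

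**Figure D4:**
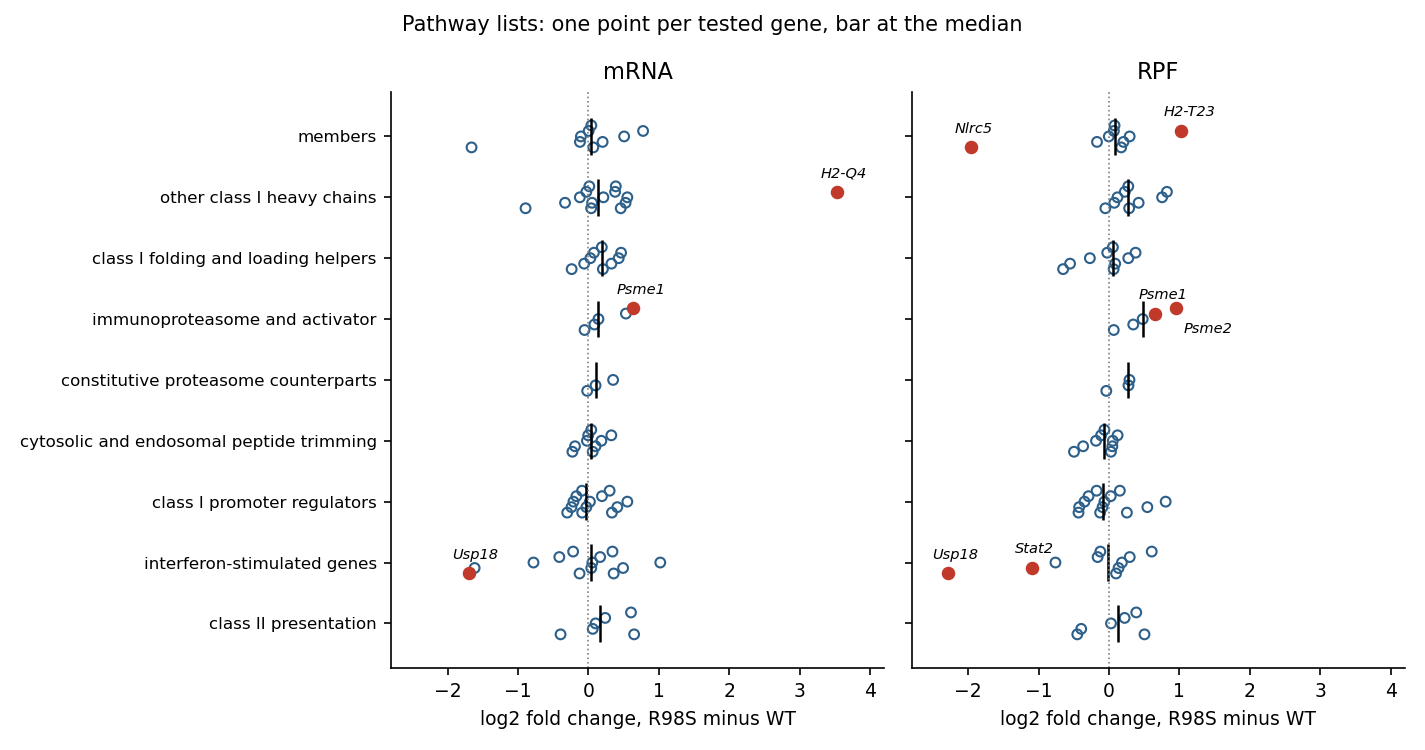
Log2 fold change, R98S minus WT, of each tested gene in the 9 members and 8 pathway lists, mRNA on the left and RPF on the right; red filled points passed at an adjusted p under 0.1 and black bars are medians. Most genes lie near 0, with H2-Q4 at 3.54 in mRNA the farthest to the right and Usp18 at -2.28 in RPF the farthest to the left.

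The 6 members on chromosome 17 span 2.12 Mb from Tapbp to H2-T23. Of 99 genes tested there for mRNA, 2 rose and 5 fell, where 3.03% and 3.91% of all tested genes did, with a median log2 change of 0.01. Of 79 tested for RPF, 3 rose, H2-T23 among them, and 3 fell, with a median of 0.12. Of all genes tested for RPF, 3.13% rose and 4.62% fell. Over the whole chromosome the medians were -0.02 and 0.04. Most of the called genes were no members: for RPF the nearest to H2-T23 was Dhx16, with a log2 change of 0.66 (adjusted p = 0.0592).

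**Figure D5:**
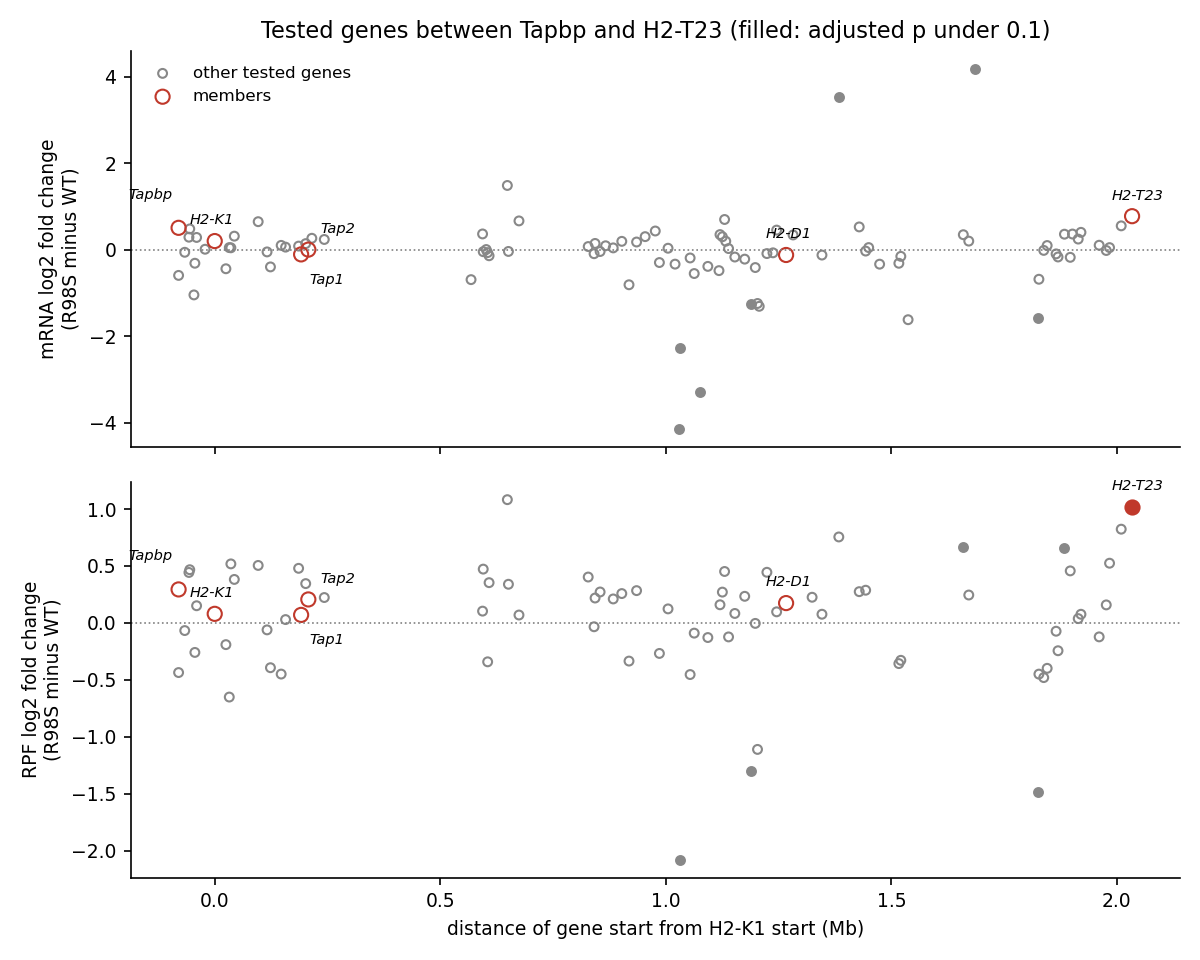
Log2 fold change, R98S minus WT, of each tested gene between Tapbp and H2-T23 against the distance of its start from that of H2-K1 in Mb, mRNA above and RPF below; red circles are members, and filled points have an adjusted p under 0.1. H2-T23, at the right end, is the only filled member (1.02 in RPF), and genes called higher and genes called lower both occur in each panel.

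The labelled cell type was checked against markers. Among pro-B cell markers, Cd79a, Cd79b and Ptprc were well expressed, whereas Pax5, Rag1 and Il7r were listed at 0 in every mRNA library and Ebf1, Igll1, Vpreb1, Rag2 and Cd93 were at no more than 2.69 normalized counts. Ptprc, the most abundant of them, had 3802 to 5001 mRNA counts in R98S and 4871 to 11845 in WT clones. Ptprc (CD45) RPF fell in R98S clones (log2 change -1.19, adjusted p = 0.0157, limma). The 3 tested markers of this list had no common direction. Their log2 changes ran from -0.80 to 1.00 for mRNA (median 0.42) and from -1.19 to 1.01 for RPF (median 0.39). Of 6 T cell markers, Cd3d RPF rose (2.33, adjusted p = 0.0143), while Cd3e, Cd4 and Cd8a were at no more than 5.16 in mRNA, and the summed mRNA was 136 to 146 in R98S and 50.9 to 69.8 in WT clones. Of 5 macrophage markers, 3 were tested for mRNA, with log2 changes from -3.06 to -0.097 and a median of -2.94. Emr1 mRNA fell (-3.06, adjusted p = 0.000716), and DESeq2 and edgeR each called 2 of the 3. Emr1 is not among the RPF genes, and Csf1r mRNA was at no more than 3.30. The 1 macrophage marker tested for RPF did not pass (log2 change -0.097, adjusted p = 0.883, limma). The summed mRNA was 518 to 1179 in R98S and 4901 to 6759 in WT clones. Of 6 mast cell and basophil markers, Cpa3 rose in mRNA (3.28, adjusted p = 0.0506) and RPF (2.41, adjusted p = 0.0154). Gata2 mRNA fell (-0.73, adjusted p = 0.0805), and Kit was listed at 0. The summed mRNA, mostly Gata2 (mean 18328 over the 6 clones), was 12241 to 15825 in R98S and 20397 to 26588 in WT clones. The median log2 change of the tested markers was 0.84 for mRNA (4 tested) and 1.36 for RPF (3 tested). Of 5 fibroblast markers, none was tested, and their summed mRNA stayed at or below 12.7. Genotypes thus differed in some markers of other lineages, of which Emr1 and Gata2 were abundant in mRNA while Csf1r, Kit, Cd3e, Cd4 and Cd8a were at or near 0. The part of these differences in the changes of H2-T23 and Nlrc5 was not tested.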

How the data were processed

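Genotype and clone number come from the labels of each sample. For each assay, the authors deposited 1 table of signal values: gene counts divided by the library's DESeq2 size factor. Per the paper's methods, footprints were stripped of adapters and of rRNA and tRNA reads (Bowtie2), aligned to mm10 with Tophat 2.0.11 and kept at a mapping quality of at least 10; RPF were counted in coding sequences without their first 15 and last 5 codons, mRNA over exons. Per the labels, 3 technical replicates per footprinting library were merged. The strand setting of counting is not given in the sources used here. Whole reads were recovered for 100% of values (tolerance 0.01 read).

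The main test was limma 3.58.1 (R 4.3.3) on log2(value + 1), for genes with a mean of at least 10 (for TE, at least 10 in all 12 libraries), with Benjamini-Hochberg adjustment over all tested genes and a threshold of 0.1. Fold changes on this scale understate those of low genes. TE was the difference of log2 values within a clone; the pairing comes from the clone numbers in the labels, and deviations of the 2 libraries of a clone correlated at 0.218 to 0.681. DESeq2 1.42.0 and edgeR 4.0.16 on recovered reads were alternatives, with others on the filter, pseudocount, weights, centring and left-out clones. The tests were tried on simulated data.

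The members and lists were chosen with earlier results of these data known. Named genes were all members and, from each list, the genes past the threshold in mRNA or RPF (at most the 4 with the largest mRNA change) and the gene with the highest mean mRNA. Representative transcripts had the longest coding sequence. Supplementary tables and the study's other datasets were not used here. 1 gene of the marker lists is not reported here.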

Additional observations from a re-analysis of the deposited data

How the results depend on the processing

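The number of members called for mRNA, 0 with limma, was 2 with array quality weights, 1 with chromosome medians removed, 2 with DESeq2 and 1 with edgeR, and 0 to 1 when 1 clone was left out. The number called for RPF, 2, was 1 with a minimum of 50 (Nlrc5 was then not tested) and 1 with chromosome medians removed, and 1 to 2 when 1 clone was left out. No member passed for TE under any setting. In the fit with no replicate block, which ignores the pairing of the libraries of a clone, the TE count was also 0. Reversals of sign occurred only in changes that did not pass. With array quality weights the log2 changes became 0.25 (H2-D1 mRNA), 0.26 (Tap1 mRNA), -0.29 (Erap1 mRNA), 0.091 (H2-K1 TE) and 0.15 (Erap1 TE). With chromosome medians removed they became -0.065 (B2m mRNA) and 0.090 (Erap1 RPF), and Erap1 RPF also became 0.0016 with library medians removed and 0.0022 with edgeR. With 1 clone left out, log2 changes ranged from -0.33 to 0.22 (H2-D1 mRNA), -0.028 to 0.077 (B2m mRNA), -0.29 to 0.060 (Tap1 mRNA), -0.089 to 0.16 (Tap2 mRNA), -0.15 to 0.33 (Erap1 mRNA), -0.083 to 0.20 (H2-K1 RPF), -0.14 to 0.092 (Erap1 RPF), -0.28 to 0.038 (H2-K1 TE) and -0.24 to 0.19 (Erap1 TE). The cause of these shifts was not tested. Of the changes of the 9 members and of H2-Q4, Psme1, Psme2, Stat2 and Usp18 under these settings, 476 kept their sign and their side of the threshold, 11 crossed it to a call and 28 lost one. Depth limits Nlrc5 and Usp18, with few footprints in R98S clones, and the mRNA library of WT clone 28, where 1 read is worth 2.69 normalized counts.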
